A study of Mus musculus with 24 samples.

Results

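The cytotoxic granule genes studied here were the pore former Prf1, the granzymes Gzma, Gzmb, Gzmc, Gzmd, Gzme, Gzmf and Gzmk, the granule membrane protein gene Nkg7 and the granule proteoglycan gene Srgn. They were taken by name, as 10 of the 55401 genes in the RNA table, and 7 of them passed the filter on low counts that left 14749 genes for testing. Gzmd, Gzme and Gzmk did not pass it. In the chromatin table, the 38 of 75802 peaks that lay within 20 kb of a listed gene were read as well. They lay near 8 of the genes, and Gzmd and Gzme had none.

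CD8 T cells of C57BL/6J mice, taken from spleen and lymph nodes with magnetic beads, were cultured for 3 days with anti-CD28 and interleukin-2. From day 2 to day 3 the cells received lactate with Oxyrase, sodium pyruvate, lactate or sodium chloride (NaCl), the last 3 at 20 mM per the treatment protocol. Lactate given with Oxyrase is listed here at 20 mM as well. The protocol gives no dose for Oxyrase, a preparation of bacterial membranes whose enzymes use up oxygen. All 4 groups thus shared the genotype, the activation and the culture, and Oxyrase was given only on top of lactate, so that it was read against lactate alone. Each group had 3 RNA-seq and 3 ATAC-seq libraries. The study's stated interest was how pyruvate, lactate and low oxygen act on CD8 T cells; oxygen itself was not among the measurements used here, and the cells were read in culture, with no target cells named in the labels.

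Killer T cells store perforin and granzymes in lysosome-like granules and release them at the contact with a target cell. Perforin opens the target's membrane, and granzymes, which are serine proteases, pass through and cut proteins inside, granzyme B by activating the cell-death pathway. Serglycin, a proteoglycan with sulphated sugar chains, holds the positively charged granule proteins, and Nkg7 is a membrane protein of the same granules. Resting CD8 T cells carry few of these transcripts and build them up after activation under cytokines such as interleukin-2.

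RNA libraries held 26.04 M to 39.64 M counts and ATAC libraries 25.31 M to 37.07 M counts in peaks (M stands for 1e+06). RNA levels are given as CPM, counts scaled to a common library size of 1e+06, and comparisons as log2 fold changes with their standard error (SE), from a model of all 12 libraries of an assay; "called" means an adjusted p under 0.05 over all features tested. No label ties a library to an animal or a culture, so that p-values measure the spread between these samples, and the RNA values appear to have been adjusted earlier for replicate number, which would lower that spread. Among the ATAC libraries, NaCl replicate 3 was nearest to lactate replicate 1, and NaCl replicate 1 to pyruvate replicate 1. Transcript lengths were not used, so levels are compared between samples and not between genes.

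The labelled cell type was read from marker transcripts. Summed over 9 CD8 T cell markers, all of them detected in every group, the level was 2207 to 2298 CPM with lactate and Oxyrase, 2769 to 2863 CPM with pyruvate, 3064 to 3129 CPM with lactate and 3129 to 3236 CPM with NaCl. Of these 9 genes, 7 were called lower and 0 higher with Oxyrase over lactate, among them Cd8a (log2 -0.70) and Cd2 (-1.28), where 23.6% of all genes tested were called lower and 26.1% higher. With pyruvate over NaCl 7 were lower and 0 higher (6.28% and 9.4% of all genes), and 0 were called with lactate over NaCl. The 6 markers of natural killer and innate lymphoid cells, which also carry perforin and granzymes, summed to 1.70 to 2.30 CPM with lactate and Oxyrase, 1.77 to 1.92 CPM with pyruvate, 1.09 to 1.54 CPM with lactate and 0.994 to 1.39 CPM with NaCl, nearly all of it Klre1, which was called higher with Oxyrase over lactate (log2 0.65, adjusted p = 0.0201). The defining natural killer receptor gene Ncr1 was listed at 0 in every library with lactate and Oxyrase, with pyruvate and with lactate. The 6 markers of mast cells and basophils, which also use serglycin, summed to 6.33 to 12.6 CPM with lactate and Oxyrase, 0.797 to 2.18 CPM with pyruvate, 1.12 to 1.39 CPM with lactate and 0.731 to 1.36 CPM with NaCl; this was almost only Kit, and Cpa3, Mcpt4, Mcpt8 and Fcer1a were at 0 throughout. The 3 CD4 T cell markers summed to 1.44 to 1.96 CPM with lactate and Oxyrase and to 4.85 to 6.66 CPM over the other 9 libraries, and the 5 B cell markers reached at most 4.20 CPM in any library. The 6 myeloid and dendritic markers summed to 0.757 to 1.37 CPM with lactate and Oxyrase, 0.315 to 0.633 CPM with pyruvate, 0.210 to 0.382 CPM with lactate and 0.270 to 0.361 CPM with NaCl, and the rise was in Itgax, which averaged 0.769 CPM with lactate and Oxyrase and 0.0708 CPM with lactate and, like Gzma below, passed the filter on low counts through the Oxyrase libraries alone. The part of these shifts in the results on granule genes was not tested. In bulk samples, fewer cells of a type and less RNA per cell cannot be told apart.

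Upstream sequences are shown for Prf1, Gzmb, Gzmc and Srgn, the genes on which the RNA results turn; they are the 250 bases before the start that RefSeq gives for 1 transcript, which for Prf1, Gzmc and Srgn lies inside the gene's span, on GRCm38.p6 (the mm10 build of the peak table), 5′ to 3′ on the gene's strand. They cover chr10:61297586-61297835 on the plus strand for Prf1, and on the minus strand chr14:56262335-56262584 for Gzmb, chr14:56234658-56234907 for Gzmc and chr10:62507758-62508007 for Srgn at the start that lies under a peak. Capitals mark matches on either strand to TGANTCA (AP-1), TGTGGT (RUNX factors), GGTGTG (T-box factors), ACGTG or GCGTG (hypoxia response cores) and TTCNNNGAA (STAT factors); ACCACA is TGTGGT read on the other strand.
Prf1: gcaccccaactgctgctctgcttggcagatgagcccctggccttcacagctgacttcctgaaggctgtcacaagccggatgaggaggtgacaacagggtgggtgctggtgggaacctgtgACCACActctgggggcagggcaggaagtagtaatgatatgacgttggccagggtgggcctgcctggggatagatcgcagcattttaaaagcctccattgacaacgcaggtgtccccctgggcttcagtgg
Gzmb: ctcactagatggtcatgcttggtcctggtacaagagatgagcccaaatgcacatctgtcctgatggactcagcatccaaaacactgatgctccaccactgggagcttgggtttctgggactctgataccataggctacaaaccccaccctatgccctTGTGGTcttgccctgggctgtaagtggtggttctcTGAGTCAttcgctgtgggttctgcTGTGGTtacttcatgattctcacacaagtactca
Gzmc: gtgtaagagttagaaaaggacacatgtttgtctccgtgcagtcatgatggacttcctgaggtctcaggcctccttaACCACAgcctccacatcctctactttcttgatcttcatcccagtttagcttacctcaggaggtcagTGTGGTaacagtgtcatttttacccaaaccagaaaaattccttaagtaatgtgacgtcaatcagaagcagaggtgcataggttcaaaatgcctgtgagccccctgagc
Srgn: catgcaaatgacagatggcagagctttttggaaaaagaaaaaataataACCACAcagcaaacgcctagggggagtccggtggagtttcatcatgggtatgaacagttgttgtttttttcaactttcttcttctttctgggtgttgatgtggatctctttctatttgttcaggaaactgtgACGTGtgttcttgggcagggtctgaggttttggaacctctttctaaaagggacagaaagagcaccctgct
TGTGGT was found upstream of 9 of the 10 genes, all but Gzmk, against 14.2% of 27025 RefSeq promoters of the same length. Gzmc, Gzmd, Gzme and Gzmf share much of this sequence by duplication, and outside them the motif stood at 5 of 6 genes. ACGTG stood upstream of Srgn and Gzmk and in 16.6% of all promoters, TGANTCA upstream of Gzmb alone and in 6.87%, GGTGTG upstream of Gzmk and Nkg7 and in 16.2%, TTCNNNGAA upstream of Nkg7 and in 7.18%, and GCGTG at none of the 10 genes and in 28.2%. No matches overlapped each other. A match of letters is a description and not a binding site.

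Prf1 encodes perforin, the pore former of the granule (ENSMUSG00000037202, chr10:61297751-61304684, plus strand). It had 442, 431 and 448 CPM in the libraries with lactate and Oxyrase, 245, 300.0 and 300.5 CPM with pyruvate, 149, 159 and 154 CPM with lactate, and 109, 135 and 133 CPM with NaCl. The 4 groups did not overlap in any pairing, and lactate and NaCl lay closest. With Oxyrase on top of lactate Prf1 rose 2.86-fold over lactate (log2 1.52, SE 0.075, adjusted p = 4.26e-11). Against NaCl it was 3.52-fold higher with lactate and Oxyrase (log2 1.81, SE 0.076, adjusted p = 6.41e-12) and 2.25-fold higher with pyruvate (log2 1.17, SE 0.076, adjusted p = 2.91e-08). Lactate alone gave 1.23-fold over NaCl (log2 0.30, SE 0.076, adjusted p = 0.025), and this call was lost without NaCl replicate 1 (adjusted p = 0.115), lactate replicate 2 (0.0933) or lactate replicate 3 (0.0666). The order was thus lactate with Oxyrase, pyruvate, lactate, NaCl, and lactate with Oxyrase exceeded pyruvate 1.56-fold (log2 0.64, SE 0.073, adjusted p = 1.69e-06).

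**Figure D1:**
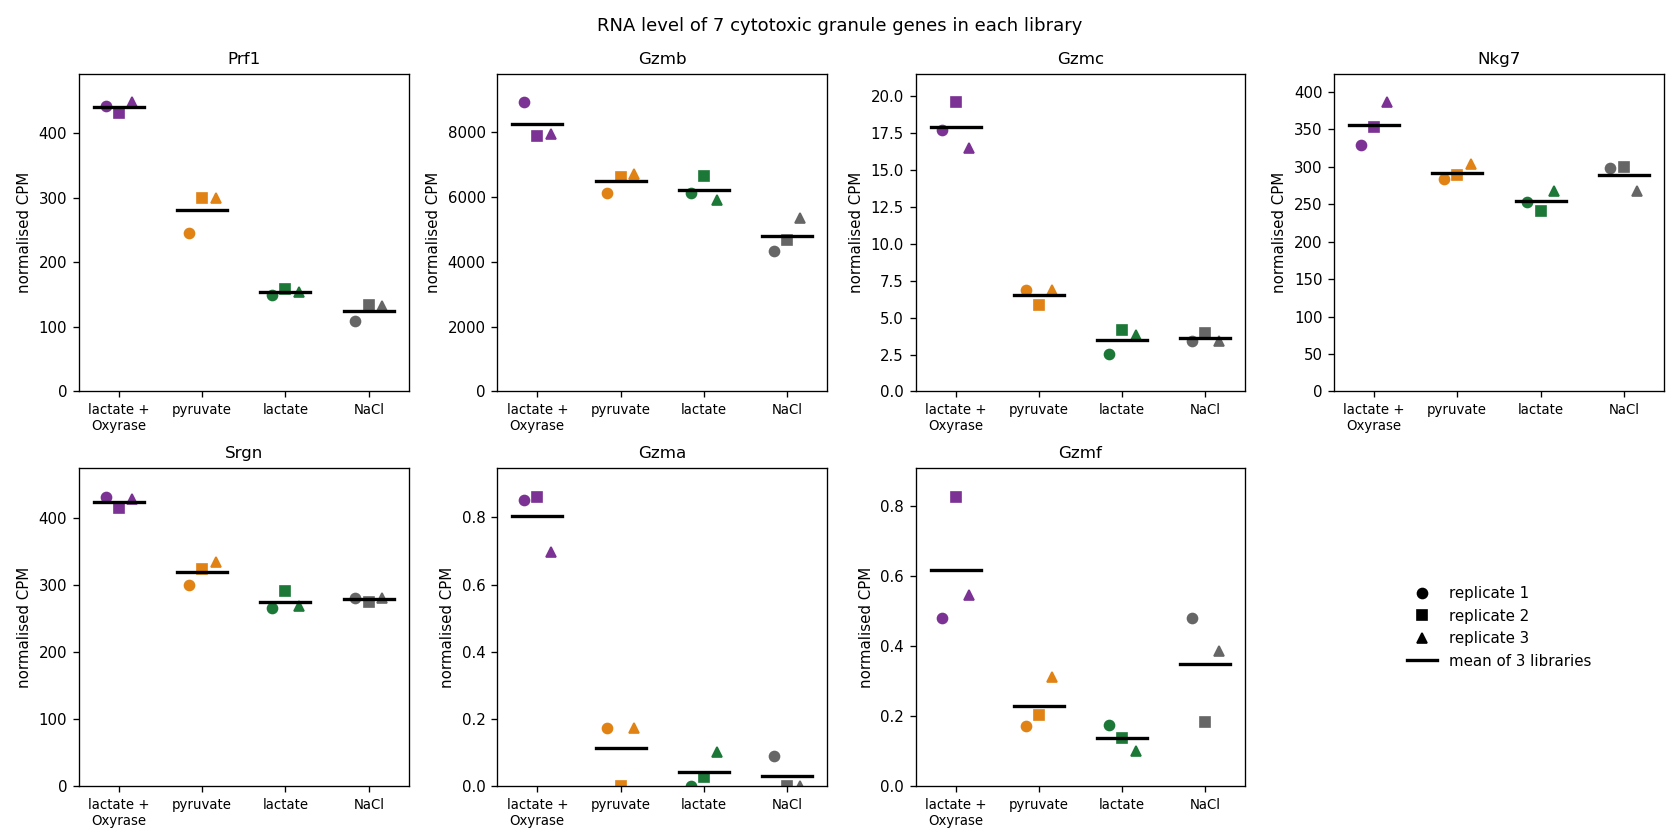
Normalised CPM (y axis, from 0) of 7 granule genes in each of the 12 RNA libraries, by group on the x axis; circles, squares and triangles are replicates 1, 2 and 3 and bars are group means. Prf1, Gzmb, Gzmc, Nkg7, Srgn and Gzma stand highest in the 3 libraries with lactate and Oxyrase, and Gzma passed the filter on low counts only through them. Prf1 is next in pyruvate at 245 to 300.5 CPM.

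Gzmb encodes granzyme B (ENSMUSG00000015437, chr14:56258836-56262334, minus strand), the member known best for starting the death pathway in a target. Its level was 8923, 7875 and 7939 CPM with lactate and Oxyrase, 6134, 6629.8 and 6712 CPM with pyruvate, 6131, 6641 and 5906 CPM with lactate and 4321, 4679 and 5367 CPM with NaCl. The pyruvate and lactate libraries overlapped, all 6 of them stood above every NaCl library, and all 3 Oxyrase libraries stood above the rest. Gzmb rose 1.36-fold with pyruvate (log2 0.44, SE 0.068, adjusted p = 0.000303), 1.30-fold with lactate (log2 0.38, SE 0.068, adjusted p = 0.00336) and 1.72-fold with lactate and Oxyrase over NaCl (log2 0.78, SE 0.068, adjusted p = 4.44e-08). Oxyrase raised it 1.32-fold over lactate (log2 0.41, SE 0.068, adjusted p = 8.6e-05). The step from lactate to lactate with Oxyrase was thus smaller in Gzmb than in Prf1, which shows in the ratio of their counts within a library. That ratio was 20.2, 18.3 and 17.7 with lactate and Oxyrase, 25.0, 22.1 and 22.3 with pyruvate, 41.1, 41.9 and 38.4 with lactate and 39.8, 34.7 and 40.4 with NaCl. It was lower in every library with Oxyrase or pyruvate than in any with lactate alone or NaCl, and only libraries are compared by it, since the counts of both genes also depend on their lengths.

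Gzmc lies beside Gzmb in the granzyme cluster of chromosome 14 (ENSMUSG00000079186, chr14:56231397-56241647, minus strand) and encodes a granzyme of activated mouse killer cells. It had 17.7, 19.6 and 16.5 CPM with lactate and Oxyrase, 6.88, 5.82 and 6.86 CPM with pyruvate, 2.52, 4.15 and 3.83 CPM with lactate and 3.40, 3.93 and 3.43 CPM with NaCl. Lactate and NaCl overlapped, pyruvate lay above both, and the Oxyrase libraries lay far above pyruvate. Gzmc rose 5.05-fold with Oxyrase over lactate (log2 2.34, SE 0.134, adjusted p = 2.44e-10), the largest fold among the 5 members above 1 CPM in that comparison, and 1.81-fold with pyruvate over NaCl (log2 0.85, SE 0.144, adjusted p = 0.000669). With lactate against NaCl its log2 fold change was -0.02 with a 95% interval from -0.34 to 0.31 and an adjusted p of 0.961.

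The other granzymes of the cluster, Gzmd, Gzme and Gzmf, were close to the limit of detection. Just upstream of their starts some copies are much alike: the 100 bases printed here for each of Gzmd (chr14:56132594-56132693, minus strand) and Gzme (chr14:56120627-56120726, minus strand) differ at the 3 capital positions.
Gzmd: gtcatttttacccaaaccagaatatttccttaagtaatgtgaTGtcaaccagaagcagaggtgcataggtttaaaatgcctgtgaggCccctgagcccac
Gzme: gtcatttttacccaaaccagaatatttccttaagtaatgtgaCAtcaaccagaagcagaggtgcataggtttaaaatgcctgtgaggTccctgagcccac
Over 250 bases, allowing a shift but no gap, Gzmf matched Gzmd at 88.2% and Gzme at 81.7% of the bases compared. Gzmd matched Gzme at 80.7%, and Gzmc matched Gzmd at 57.7%. Gzme lacks a base that Gzmd has in this stretch, which lowers their value since no gap was allowed. The percentages therefore do not rank the copies by likeness. These bases lie before the start, and the likeness of the transcripts was not measured. Where transcripts are alike, reads can be divided between the copies by the estimation of counts, so values of single genes here may be uncertain.

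Gzmf (ENSMUSG00000015441) had 13, 24 and 18 counts with lactate and Oxyrase, 6, 8 and 9 with pyruvate, 5, 5 and 4 with lactate and 16, 6 and 10 with NaCl. The Oxyrase libraries stood above all lactate libraries, by a fitted 4.49-fold (log2 2.17, SE 0.462, adjusted p = 0.000825), but overlapped with NaCl (log2 0.82, SE 0.405, adjusted p = 0.104). Lactate had fewer counts than NaCl in every library, with a log2 fold change of -1.35 that was not called (SE 0.497, adjusted p = 0.106). The call of Gzmf with lactate and Oxyrase over pyruvate (log2 1.44, SE 0.425, adjusted p = 0.0105) was lost without pyruvate replicate 1 (adjusted p = 0.0536) or lactate with Oxyrase replicate 2 (0.066). Gzme had 5, 12 and 0 counts with lactate and Oxyrase, 0, 0 and 4 with pyruvate, 6, 0 and 0 with lactate and 0 in each NaCl library. Of the 17 counts with lactate and Oxyrase 12 came from 1 library, and another library of that group was at 0 like those with NaCl, so that the groups overlapped. Gzmd gave 5, 1, 2 and 2 counts over the groups with lactate and Oxyrase, pyruvate, lactate and NaCl, too few to set them apart at this depth.

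Gzma and Gzmk lie in a separate cluster on chromosome 13; granzyme A is a tryptase that cells of the memory and natural killer lineages carry, and Gzmk marks memory-like CD8 T cells. Gzma (ENSMUSG00000023132, chr13:113093824-113100981, minus strand) had 23, 25 and 23 counts with lactate and Oxyrase, 6, 0 and 5 with pyruvate, 0, 1 and 4 with lactate and 3, 0 and 0 with NaCl. Every Oxyrase library thus stood above all other libraries, while the other 3 groups overlapped. Summed over each group and divided by depth, the ratio of lactate with Oxyrase to lactate was 16.5 (exact 95% counting interval 6.74 to 52.3) and that to NaCl 23.8 (7.83 to 118); such intervals cover counting error only. Gzma passed the filter on low counts, which asks for 0.308 CPM or more in 3 libraries, only through the 3 Oxyrase libraries. A gene admitted in this way has to be high in that group, so its fitted values are a description and no support. The fitted change over lactate was log2 3.98 (SE 0.757, adjusted p = 0.000303), and 5.39 without lactate replicate 3. Over NaCl it was 4.47 (SE 0.835, adjusted p = 0.000241), and 7.70 without NaCl replicate 1, the only NaCl library with any count. Over pyruvate it was 2.84 (SE 0.662, adjusted p = 0.00202), and 2.19 without pyruvate replicate 2. Gzmk gave 3 counts with lactate and Oxyrase, 2 with pyruvate and 0 with lactate and with NaCl, and a count of 0 allows up to 0.0286 CPM over the lactate group and 0.033 CPM over the NaCl group.

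Srgn encodes serglycin, the carrier of the granule proteins (ENSMUSG00000020077, chr10:62493833-62527445, minus strand). It had 430.5, 414 and 428 CPM with lactate and Oxyrase, 300.1, 324 and 334 CPM with pyruvate, 266, 291 and 268 CPM with lactate and 281, 274 and 280.5 CPM with NaCl. Lactate and NaCl overlapped, and pyruvate stood between them and Oxyrase without overlap. Srgn rose 1.54-fold with Oxyrase over lactate (log2 0.63, SE 0.043, adjusted p = 2.28e-09) and 1.15-fold with pyruvate over NaCl (log2 0.20, SE 0.043, adjusted p = 0.00468). Its difference between lactate and NaCl was log2 -0.02, with a 95% interval from -0.11 to 0.07 (adjusted p = 0.853).

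Nkg7 encodes a granule membrane protein needed for full degranulation in mice (ENSMUSG00000004612, chr7:43437138-43438246, plus strand). It had 328, 354 and 386 CPM with lactate and Oxyrase, 283, 289 and 304 CPM with pyruvate, 253, 241 and 268 CPM with lactate and 299, 299 and 267 CPM with NaCl. The Oxyrase libraries stood above all others, and NaCl overlapped with both pyruvate and lactate. Nkg7 rose 1.40-fold with Oxyrase over lactate (log2 0.49, SE 0.057, adjusted p = 1.83e-06) and 1.23-fold over NaCl (log2 0.30, SE 0.057, adjusted p = 0.000266). With lactate against NaCl it stood at log2 -0.18 (SE 0.057, adjusted p = 0.0596), just outside the threshold; it was called without NaCl replicate 3 (adjusted p = 0.0241), lactate with Oxyrase replicate 1 (0.0357) or lactate with Oxyrase replicate 3 (0.0417). With pyruvate against NaCl it differed by log2 0.02 (95% interval -0.10 to 0.14, adjusted p = 0.882).

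Counted over the 10 genes, lactate with Oxyrase against lactate gave 7 higher and 0 lower, where 26.1% of all genes tested were called higher and 23.6% lower. Against NaCl, lactate with Oxyrase gave 6 higher and 0 lower (26.5% and 24.3% of all genes), pyruvate 4 higher and 0 lower (9.4% and 6.28%) and lactate 2 higher and 0 lower (3.61% and 4.12%). The 4 called with pyruvate were Prf1, Gzmb, Gzmc and Srgn, and the 2 called with lactate were Prf1 and Gzmb; without NaCl replicate 1, lactate replicate 2 or lactate replicate 3 the lactate count was 1. Each count with Oxyrase includes Gzma, which entered the test only because it was high in that group, and is 1 lower without it. Gzmd, Gzme and Gzmk were not tested, and Gzmf passed the filter on 0.138 to 0.618 mean CPM, so the counts rest mainly on 5 genes. These comparisons share libraries and are not separate evidence.

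**Figure D2:**
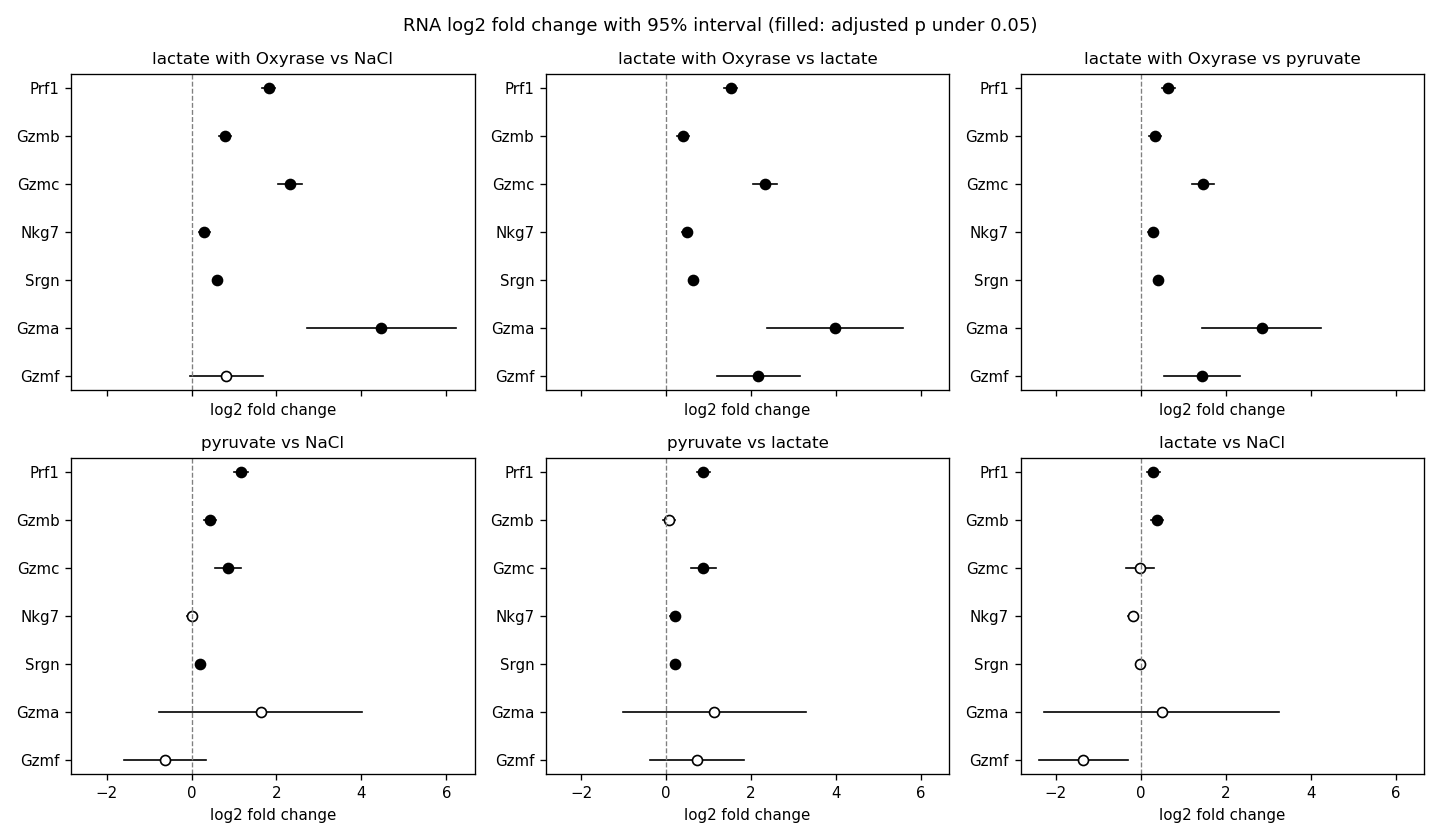
RNA log2 fold change (x axis) of 7 granule genes (y axis) in 6 comparisons, each named with the group on top of the fold change first; lines are 95% intervals and filled points had an adjusted p under 0.05. Every interval with lactate and Oxyrase over lactate lies above 0, that of Gzma by way of its filter, and the intervals of Gzma and Gzmf, which had few counts, are the widest.

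Pyruvate and lactate, 3-carbon acids that differ by a keto group in pyruvate and a hydroxyl group in lactate, were given at the same dose of 20 mM over the same day. Pyruvate against lactate gave 4 of the 10 genes higher and 0 lower (13% and 10.9% of all genes). Prf1 was 1.83-fold higher with pyruvate than with lactate (log2 0.87, SE 0.075, adjusted p = 3.37e-07) and Gzmc 1.83-fold (log2 0.87, SE 0.142, adjusted p = 0.000273). Srgn was 1.16-fold higher (log2 0.22, SE 0.043, adjusted p = 0.00151) and Nkg7 1.15-fold (log2 0.20, SE 0.057, adjusted p = 0.0173). The Nkg7 call was lost without pyruvate replicate 3 (adjusted p = 0.0815) or lactate replicate 2 (0.0811). For Gzmb no difference between the acids was called: log2 0.06 with a 95% interval from -0.08 to 0.20, that is 0.944-fold to 1.15-fold (adjusted p = 0.569). For Gzma (95% interval -1.02 to 3.28) and Gzmf (-0.38 to 1.83) the intervals were too wide to set the acids apart or together. Lactate with Oxyrase exceeded pyruvate in 7 of the 10 genes, Gzma among them, and fell below it in 0 (22.9% and 21.2% of all genes), from 1.22-fold in Nkg7 and 1.27-fold in Gzmb to 2.75-fold in Gzmc among the well-measured genes.

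Granzymes are made as inactive precursors that cathepsins trim, and serpins protect the killer cell from granzyme that leaks into its own cytosol. Of 13 genes for such processing and inhibition, 12 were tested. With Oxyrase over lactate 8 rose and 0 fell, where 26.1% of all genes were called higher and 23.6% lower, with a median log2 fold change of 0.41 against -0.003 over all genes. Serpinb9b, a serpin next of kin to the granzyme B inhibitor Serpinb9, had 9.88 ± 0.84 CPM with lactate and Oxyrase, 2.18 ± 0.49 CPM with pyruvate, 0.777 ± 0.24 CPM with lactate and 0.546 ± 0.051 CPM with NaCl (mean ± SD, n = 3 each). Its log2 fold change was 3.67 with Oxyrase over lactate (SE 0.194, adjusted p = 8.61e-11) and 1.98 with pyruvate over NaCl (SE 0.237, adjusted p = 2.56e-05). Serpinb9 itself had 590 ± 35 CPM with lactate and Oxyrase, 557 ± 31 CPM with pyruvate, 357 ± 21 CPM with lactate and 342 ± 15 CPM with NaCl. Between lactate with Oxyrase and pyruvate it differed by log2 0.08 (SE 0.0525, adjusted p = 0.213). It rose by log2 0.72 with Oxyrase over lactate (adjusted p = 5.21e-09) and 0.70 with pyruvate over NaCl (adjusted p = 2.32e-07). Serpinb6b followed with 0.56 (adjusted p = 1.45e-07) and 0.66 (adjusted p = 3.98e-07), and Cst7, the cystatin that restrains cathepsins of the granule, rose by 0.57 with Oxyrase over lactate (adjusted p = 1.71e-06). With pyruvate over NaCl 5 of these genes rose and 1, Ctsd, fell (9.4% and 6.28% of all genes). Lactate over NaCl gave 3 calls, 2 higher and 1 lower (3.61% and 4.12% of all genes), and 5 without NaCl replicate 3. Higher were the cathepsins Ctsl (log2 0.47, adjusted p = 0.000428) and Ctsz (0.17, adjusted p = 0.0355), and lower was Ctsd (-0.26, adjusted p = 0.00242). None of the listed serpins was called there. Serpin copies are alike in sequence, so their reads too can be divided between them.

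Of 25 genes for granule assembly, transport and fusion, 24 were tested, and 15 rose and 3 fell with Oxyrase over lactate (26.1% and 23.6% of all genes), with a median log2 fold change of 0.184. Cd63, a membrane protein of granules and lysosomes, rose by 1.50 (SE 0.169, adjusted p = 1.16e-06), with 7.42 ± 0.17 CPM with lactate and Oxyrase and 2.64 ± 0.34 CPM with lactate. Stx11, a fusion protein whose loss in people blocks degranulation, rose by 0.98 (SE 0.045, adjusted p = 1.85e-11), with 116 ± 5.3 CPM with lactate and Oxyrase, 79.6 ± 4.1 CPM with pyruvate, 59.0 ± 2.0 CPM with lactate and 62.4 ± 0.40 CPM with NaCl. Sytl3 (0.73, adjusted p = 4.16e-08) and Stx7 (0.51, adjusted p = 3.56e-06) rose as well. With pyruvate over NaCl 6 rose and 2 fell (9.4% and 6.28% of all genes; median 0.054), and these 8 calls were 4 without NaCl replicate 2 and 5 without pyruvate replicate 2. Sytl2, which links granules to Rab27a, rose by 0.89 with pyruvate (SE 0.103, adjusted p = 1.81e-05) and fell by 0.29 with Oxyrase over lactate (SE 0.111, adjusted p = 0.0385). Lactate with Oxyrase against pyruvate gave log2 -1.22 for it (SE 0.106, adjusted p = 6.48e-08). Lamp1, the granule membrane protein read as CD107a in degranulation assays, was lower in all 3 comparisons, by log2 -0.21 with Oxyrase over lactate (adjusted p = 0.000117), -0.30 with pyruvate over NaCl (adjusted p = 2.71e-05) and -0.17 with lactate over NaCl (adjusted p = 0.00877). It was the 1 call of the list with lactate over NaCl, where 3.61% of all genes were called higher and 4.12% lower. In that comparison 3 genes of the list were called without NaCl replicate 3 and 2 without pyruvate replicate 2 or 3.

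Killer cells also act through death ligands and secreted factors. With Oxyrase over lactate 2 of 5 such genes rose and 2 fell, a split near that of all genes (26.1% and 23.6%). Lta, a secreted lymphotoxin, rose by 0.63 (SE 0.050, adjusted p = 1.59e-08) and Fasl, the Fas ligand, by 0.21 (SE 0.081, adjusted p = 0.0374). Ltb, which anchors lymphotoxin to the membrane, changed by -1.32 (SE 0.094, adjusted p = 4.12e-09), and Tnfsf10, the ligand TRAIL, by -0.42 (SE 0.097, adjusted p = 0.00172). With pyruvate over NaCl 4 rose and 1 fell (9.4% and 6.28% of all genes). Tnfsf10 had 10.5 ± 1.0 CPM with lactate and Oxyrase, 27.8 ± 0.81 CPM with pyruvate, 13.96 ± 1.0 CPM with lactate and 16.3 ± 2.4 CPM with NaCl, and rose by 0.76 with pyruvate over NaCl (SE 0.088, adjusted p = 1.75e-05). Lactate over NaCl raised Lta (0.19, adjusted p = 0.0328) and lowered Ltb (-0.32, adjusted p = 0.0326), where 3.61% of all genes were called higher and 4.12% lower. Of the 5 genes, 0 were called there without NaCl replicate 1, NaCl replicate 2 or lactate replicate 2, and 1 without lactate replicate 1 or 3.

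Serglycin carries chondroitin sulphate chains, built on a xylose that Xylt1 or Xylt2 adds first. Of 9 genes for these chains, 4 rose and 4 fell with Oxyrase over lactate (26.1% and 23.6% of all genes; median -0.16). Xylt1 changed by -1.19 (SE 0.195, adjusted p = 7.26e-05), with 1.08 ± 0.28 CPM with lactate and Oxyrase against 2.49 ± 0.26 CPM with lactate. Chst11, which sulphates the chain, rose by 0.74 (SE 0.071, adjusted p = 1.45e-07), and the linker enzymes B4galt7 (-0.31, adjusted p = 0.00471) and B3galt6 (-0.30, adjusted p = 0.00796) were lower. With pyruvate over NaCl 2 rose and 1 fell (9.4% and 6.28% of all genes). Chst12 (0.30, adjusted p = 0.00355) and Chsy1 (0.28, adjusted p = 0.000216) were higher and B4galt7 (-0.27, adjusted p = 0.0361) was lower. Of the 3 other granzymes, Gzmn had no count, Gzmg had 2 counts in its highest library, and Gzmm was tested and not called in any comparison.

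**Figure D3:**
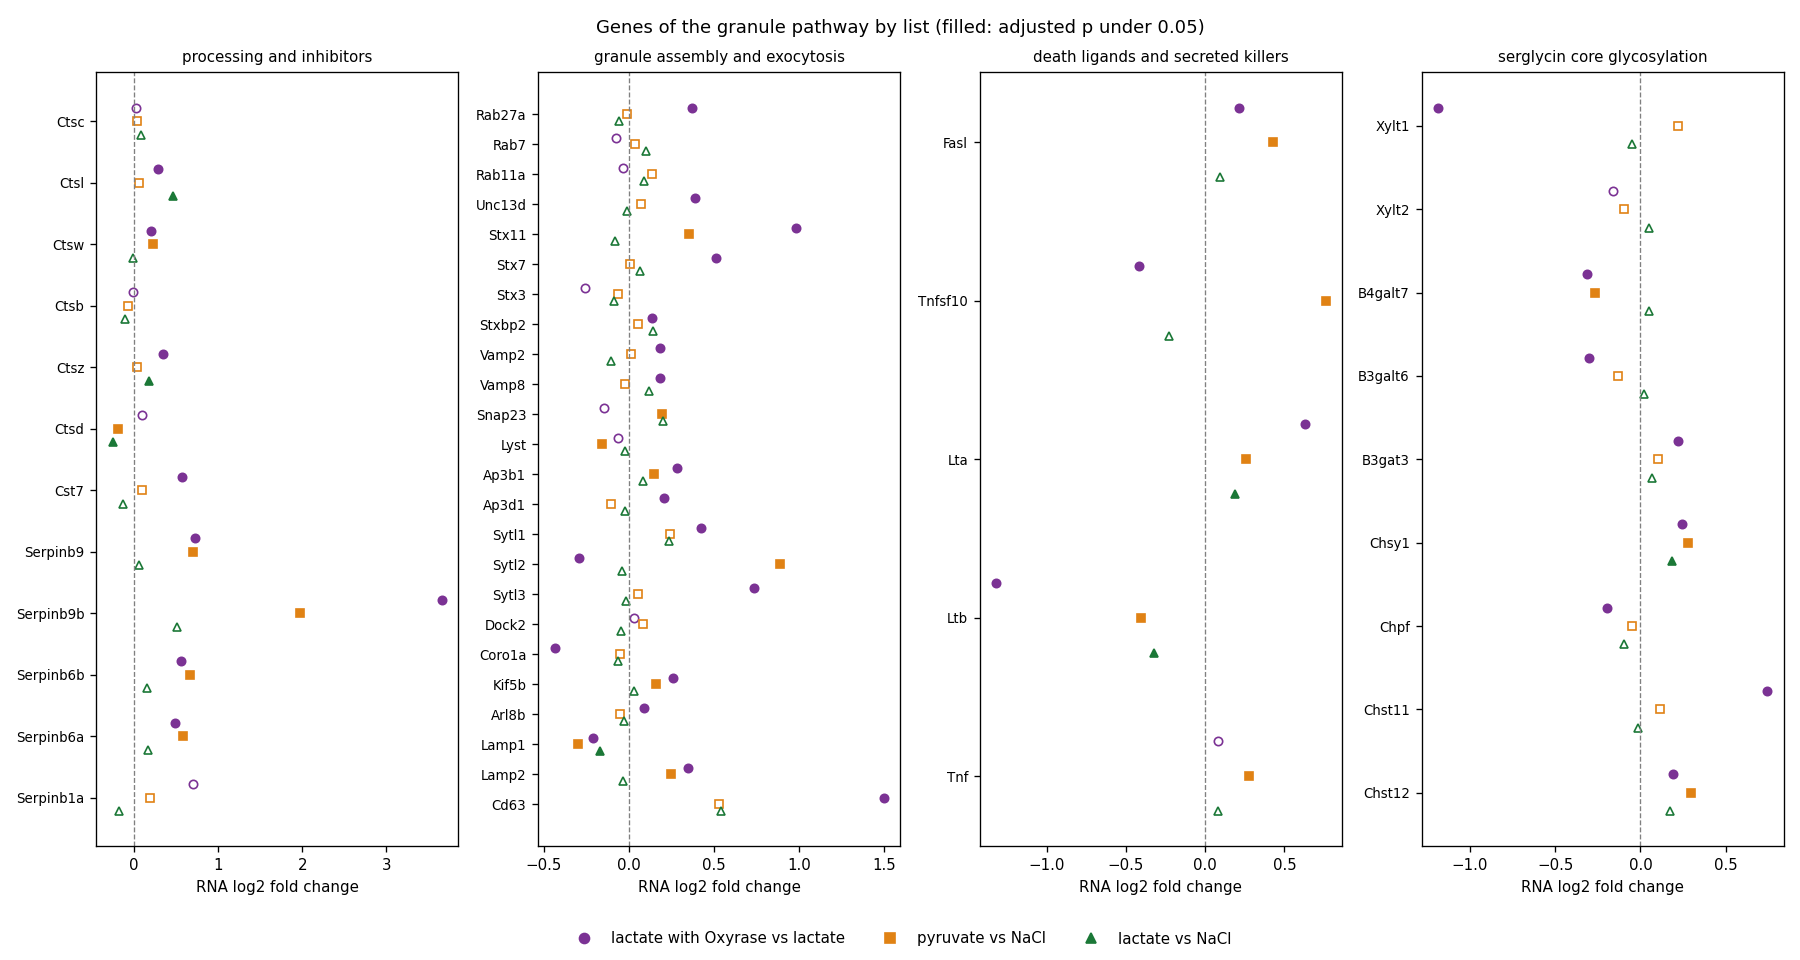
RNA log2 fold change (x axis) of the tested genes of 4 lists (y axis), for lactate with Oxyrase over lactate (circles), pyruvate over NaCl (squares) and lactate over NaCl (triangles); filled symbols had an adjusted p under 0.05, and the x axes differ between panels. Serpinb9b stands furthest right, at 3.67 with Oxyrase over lactate and 1.98 with pyruvate over NaCl.

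By Pearson correlation of log2 CPM over the 12 libraries, the genes most like Prf1 among 8988 whose log2 CPM averaged 3 or more were Cd36 (r = 0.987), Klri2, Hspa4l, Ccl3 and Ier3 (r = 0.981). Most like Gzmb were Osbpl9 (r = 0.969), Grk5, Acadm, Arnt and Jcad (r = 0.958), and most like Gzmc were Rwdd4a (r = 0.995), Ftl1, Srgap3, Rfk and Ttc9c (r = 0.978). These values are descriptions over libraries that fall into 4 groups, in which any gene that differs between the same groups correlates.

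ATAC-seq, in which a transposase inserts adapters into open DNA, was used to ask whether chromatin near the genes was more or less accessible in the same groups. Few differences were called in the peaks at the starts of the genes. A peak lay over the annotated start of 5 genes, Prf1, Gzma, Gzmb, Nkg7 and Srgn, and the peak nearest to the start of Gzmc, at chr14:56240464-56240858, lay 6.00 kb upstream, still within the gene's span. At the Prf1 start (chr10:61296721-61297991) the level was 38.7 ± 2.0 CPM with lactate and Oxyrase, 35.6 ± 0.54 CPM with pyruvate, 37.3 ± 1.7 CPM with lactate and 35.8 ± 1.4 CPM with NaCl. The transcript rose 2.86-fold with Oxyrase over lactate, whereas this peak differed by log2 0.06 with a 95% interval from -0.12 to 0.23 (adjusted p = 0.672). The start peaks of Gzma, Nkg7 and Srgn were not called in any of the 6 comparisons either.

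The peak over the Gzmb start (chr14:56261849-56262888) was called lower with lactate and Oxyrase than with NaCl (log2 -0.21, SE 0.086, adjusted p = 0.0453) and than with pyruvate (-0.24, SE 0.086, adjusted p = 0.0244), while the transcript was higher in both comparisons. Both calls depended on the scaling: with a trend on mean accessibility taken out, the changes were 0.03 (adjusted p = 0.777) and -0.01 (adjusted p = 0.896). The call against NaCl was also lost without any 1 of NaCl replicates 1 and 2, pyruvate replicates 1 and 2, lactate replicates 2 and 3 and lactate with Oxyrase replicates 2 and 3 (adjusted p between 0.0553 and 0.2). The call against pyruvate was lost without pyruvate replicate 1 or 3 or lactate with Oxyrase replicate 2 or 3 (adjusted p between 0.0525 and 0.133). A second Gzmb peak, 13.75 kb upstream of the start at chr14:56275727-56276448, had 16.1, 13.9 and 14.01 CPM with lactate and Oxyrase, 24.3, 21.1 and 22.7 CPM with pyruvate, 20.3, 21.3 and 20.2 CPM with lactate and 24.3, 24.8 and 22.8 CPM with NaCl. The Oxyrase libraries stood below all others. This peak was lower with Oxyrase than with lactate (log2 -0.49, SE 0.093, adjusted p = 8.51e-05), NaCl (-0.70, adjusted p = 4.03e-08) and pyruvate (-0.63, adjusted p = 4.22e-07), under every alternative run.

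Around Prf1, a small peak 11.47 kb upstream of the start (chr10:61286258-61286469) was highest with lactate and Oxyrase, as was the transcript. It had 2.55, 1.84 and 2.26 CPM with lactate and Oxyrase, 1.37, 1.47 and 1.24 CPM with pyruvate, 0.80, 0.84 and 1.19 CPM with lactate and 1.27, 0.63 and 1.37 CPM with NaCl. All Oxyrase libraries stood above the other 9, which overlapped except that pyruvate stood above lactate. The peak was higher with Oxyrase than with lactate (log2 1.23, SE 0.286, adjusted p = 0.000992) and NaCl (1.02, SE 0.282, adjusted p = 0.00324), under every alternative run. Its call against pyruvate (0.71, adjusted p = 0.0352) was lost without any 1 of the 3 pyruvate libraries, without lactate with Oxyrase replicate 1 or 3, and with the trend scaling (adjusted p between 0.0571 and 0.141). Of the 7 Prf1 peaks 3 were called higher and 1 lower with Oxyrase over lactate, where 15.6% and 12.8% of all peaks were, and the peak at 11.47 kb was the 1 of these 4 that kept its call under every alternative run. The call 16.39 kb upstream was lost with DESeq2, with its size factors and without any 1 of 8 libraries (adjusted p between 0.0523 and 0.217). The lower call 3.39 kb past the start was lost without lactate replicate 1 or Oxyrase replicate 2 (0.0984 and 0.0704), and the call 19.91 kb past it without lactate replicate 1 or 2 or Oxyrase replicate 1 or 2 (0.0631 to 0.0949). A peak 10.79 kb past the start was lower with lactate and Oxyrase than with NaCl (log2 -0.67), against the transcript. That call was lost without NaCl replicate 2 (adjusted p = 0.0675) or Oxyrase replicate 2 (0.0732). With pyruvate over NaCl, where the transcript rose 2.25-fold, 0 of the 7 Prf1 peaks were called. In that comparison 0 of all 75802 peaks were called, so the count is not particular to Prf1. A Gzma peak 4.00 kb upstream (chr13:113104858-113105113) had 2.69 ± 0.52 CPM with lactate and Oxyrase, 1.17 ± 0.29 CPM with pyruvate, 1.67 ± 0.055 CPM with lactate and 1.54 ± 0.16 CPM with NaCl. It was higher with Oxyrase than with pyruvate (log2 1.18, SE 0.247, adjusted p = 0.000142). Against lactate (0.68, adjusted p = 0.026) the call was lost without any 1 of the 3 lactate libraries or lactate with Oxyrase replicate 1 or 2, and with the trend scaling (adjusted p between 0.0503 and 0.143). Against NaCl (0.80, adjusted p = 0.00667) it was lost without lactate with Oxyrase replicate 2 (adjusted p = 0.0531).

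Within Srgn, 6.62 kb past its nearer start, a peak at chr10:62500821-62501453 moved against the transcript in the comparisons with Oxyrase. It had 12.6, 13.1 and 13.8 CPM with lactate and Oxyrase, 24.6, 24.2 and 23.0 CPM with pyruvate, 19.1, 19.0 and 18.6 CPM with lactate and 23.8, 26.9 and 20.8 CPM with NaCl. The Oxyrase libraries were the lowest, then lactate, and pyruvate and NaCl overlapped. The peak was lower with Oxyrase than with lactate (log2 -0.52, SE 0.096, adjusted p = 5.1e-05), NaCl (-0.86, adjusted p = 1.08e-09) and pyruvate (-0.86, adjusted p = 9.72e-10). Lactate was lower than NaCl (-0.34, SE 0.093, adjusted p = 0.0192), a call lost without NaCl replicate 1 (adjusted p = 0.0886), NaCl replicate 2 (0.267), lactate replicate 2 (0.0694) or lactate replicate 3 (0.113). Pyruvate was higher than lactate (0.34, SE 0.093, adjusted p = 0.0107), a call lost without pyruvate replicate 1 (adjusted p = 0.0557) or lactate replicate 3 (0.0614). The transcript of Srgn rose with Oxyrase, and no difference between lactate and NaCl was detectable in it. Between pyruvate and lactate, transcript and peak went the same way, the transcript being higher with pyruvate (log2 0.22, adjusted p = 0.00151). A second peak, past the far end of the gene at chr10:62485925-62487638, had 38.6 ± 2.2 CPM with lactate and Oxyrase, 57.1 ± 4.6 CPM with pyruvate, 46.4 ± 3.3 CPM with lactate and 57.2 ± 8.3 CPM with NaCl, and was likewise lower with lactate and Oxyrase than with NaCl (log2 -0.57, SE 0.096, adjusted p = 5.41e-06) and pyruvate (-0.56, SE 0.096, adjusted p = 6.42e-06).

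Nkg7 had 8 peaks, 1 of which, 1.69 kb past the start at chr7:43438716-43438935, was called with lactate over NaCl. It had 13.6, 12.4 and 11.9 CPM with lactate and Oxyrase, 10.4, 8.64 and 8.32 CPM with pyruvate, 10.9, 10.3 and 10.6 CPM with lactate and 6.48, 5.80 and 8.87 CPM with NaCl. NaCl replicate 3 lay above the other NaCl libraries and overlapped with pyruvate but not with lactate. The peak rose with lactate over NaCl (log2 0.58, SE 0.128, adjusted p = 0.00309), a call lost without NaCl replicate 2 (0.45, adjusted p = 0.0883), and with lactate and Oxyrase over NaCl (0.83, SE 0.126, adjusted p = 6.16e-07). Its rise with lactate stood beside an Nkg7 transcript of log2 -0.18 that was not called. With Oxyrase over lactate, where the transcript rose, 0 of the 8 peaks were called higher and 2 lower (15.6% and 12.8% of all peaks). The lower peak 12.83 kb upstream (chr7:43423977-43424638) had 9.88 ± 0.57 CPM with lactate and Oxyrase and 13.3 ± 1.3 CPM with lactate. It kept its call without any 1 library (adjusted p between 0.00155 and 0.0407). The call 3.86 kb upstream was lost with DESeq2 and without any 1 of 6 libraries.

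The low granzymes had few peaks near them, 2 for Gzmc, 2 for Gzmf, 4 for Gzmk and 0 for Gzmd and Gzme. The peak nearest to the Gzmc start was not called in any comparison, nor was that nearest to the Gzmk start, 2.70 kb upstream at chr13:113183270-113184065. A Gzmk peak 12.68 kb past the start (chr13:113167847-113168718) was higher with lactate and Oxyrase than with pyruvate (log2 0.32, SE 0.098, adjusted p = 0.00808), a call lost without lactate with Oxyrase replicate 1 (adjusted p = 0.0656). The peak nearest to the Gzmf start, 5.65 kb past it at chr14:56204967-56206556, was lower with Oxyrase than with lactate (-0.29, SE 0.111, adjusted p = 0.0481), where the Gzmf transcript was higher. That call was lost without any 1 of NaCl replicate 2, pyruvate replicate 1, lactate replicates 2 and 3 and lactate with Oxyrase replicates 2 and 3 (adjusted p between 0.0526 and 0.143). The other Gzmf peak, 7.15 kb past the start, was called lower with lactate and Oxyrase than with pyruvate (log2 -0.458). Thus 1 of the 2 Gzmf peaks was called lower with Oxyrase over lactate, over NaCl and over pyruvate, where 12.8%, 19.2% and 17.9% of all peaks were.

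**Figure D4:**
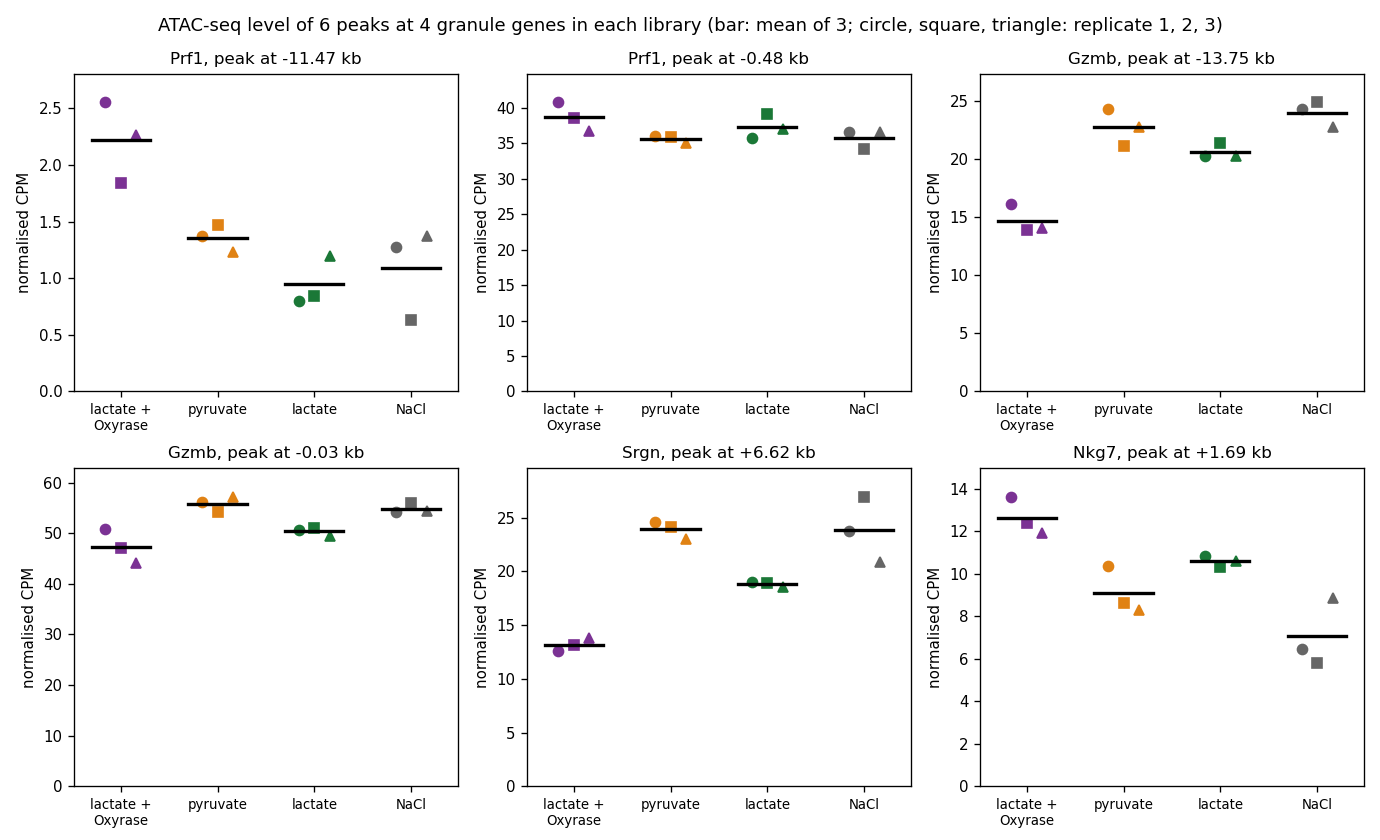
Normalised ATAC-seq CPM (y axis, from 0) of 6 peaks in each of the 12 libraries, by group on the x axis, each titled with its gene and the distance of its centre from the RefSeq start; bars are group means. With lactate and Oxyrase the Prf1 peak at -11.47 kb is highest, the Gzmb peak at -13.75 kb and the Srgn peak at 6.62 kb are lowest, and the Prf1 start peak stays between 35.6 and 38.7 CPM on average in all 4 groups.

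Over the 38 peaks, lactate with Oxyrase against lactate gave 4 higher and 8 lower, that is 10.5% and 21.1%, where 15.6% and 12.8% of all peaks were called; with the trend scaling 5 were higher and 6 lower. Against NaCl, lactate with Oxyrase gave 6 higher and 8 lower (15.8% and 21.1% of the 38, against 21.5% and 19.2% of all peaks), or 11 and 8 with the trend scaling. Against pyruvate it gave 8 and 8 (21.1% each, against 21.6% and 17.9%), or 10 and 6 with the trend scaling. Lactate against NaCl gave 1 higher and 2 lower (1.13% and 5.28% of all peaks, that is 856 and 4001, or 1869 and 3643 with the trend scaling, which gave 1 and 1 of the 38). Pyruvate against lactate gave 4 higher and 1 lower (6.84% and 4.78% of all peaks), 3 and 0 with the trend scaling and 4 and 0 with DESeq2's size factors. Pyruvate against NaCl gave 0 of 38 with edgeR and 0 with DESeq2, and 0% and 0% of all peaks, with 3 of the 38 at an unadjusted p under 0.05. Since 1 peak is 2.63% of the 38, each of these shares lay within a few peaks of that of all peaks, and the median log2 fold change over the 38 was between -0.06 and 0.03 in every comparison. Counts moved with single libraries: lactate with Oxyrase against lactate gave 5 without lactate replicate 1 and 7 without lactate replicate 3 or Oxyrase replicate 1 or 2. Lactate with Oxyrase against NaCl gave 9 without NaCl replicate 2 and 8 without Oxyrase replicate 2, and against pyruvate 10 without pyruvate replicate 1 or 3 or any Oxyrase library. Lactate against NaCl gave between 0, without NaCl replicate 2, and 6, without NaCl replicate 3, and 1 without NaCl replicate 1 or lactate replicate 2 or 3. Pyruvate against lactate gave 0 without pyruvate replicate 1 or lactate replicate 3, 1 without lactate replicate 2, 2 without pyruvate replicate 2 or 3 and 3 without lactate replicate 1.

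**Figure D5:**
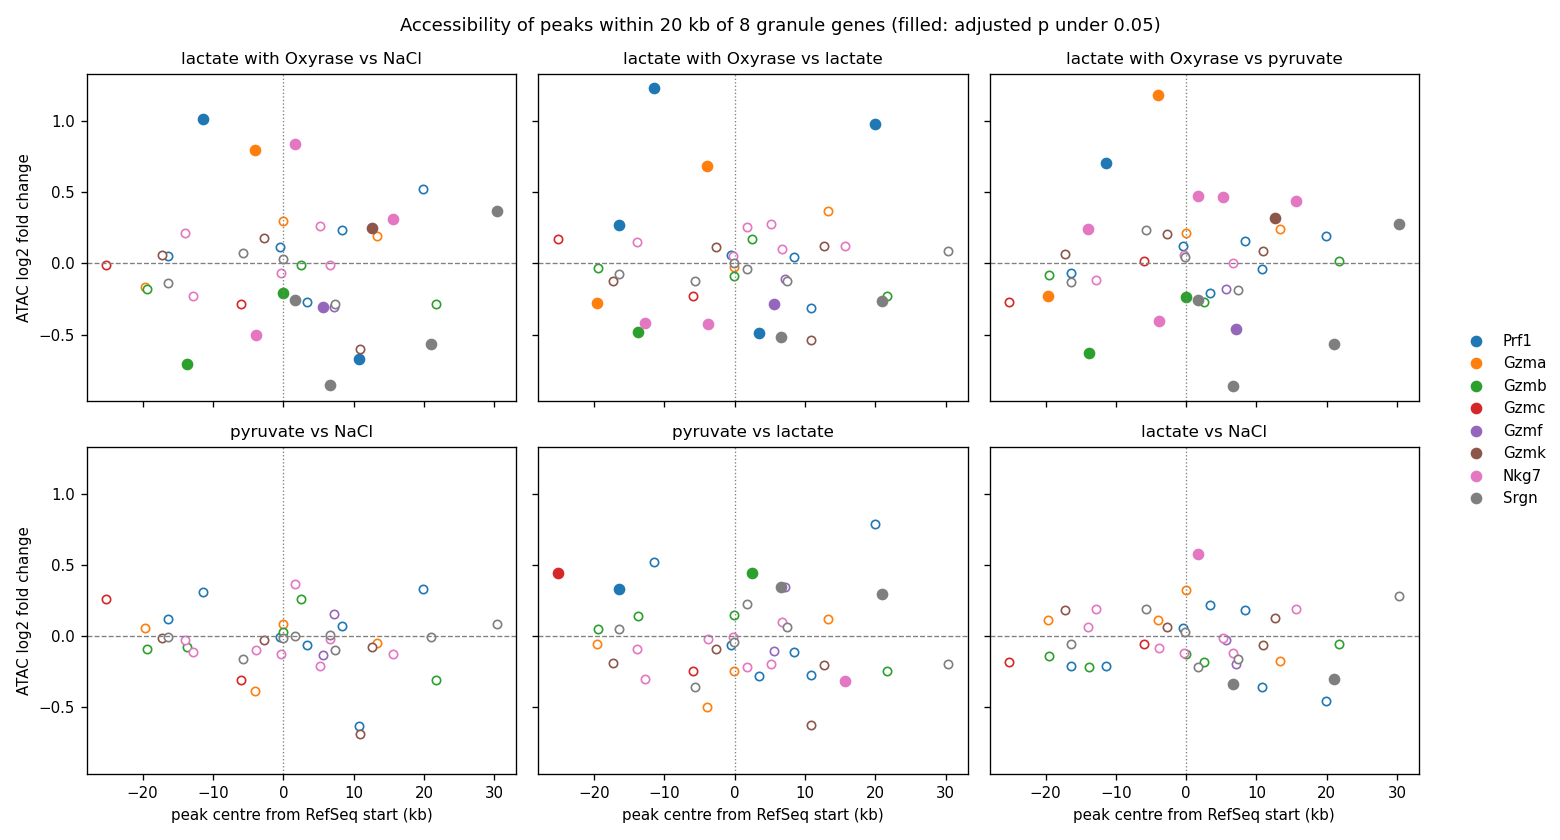
ATAC-seq log2 fold change (y axis) of the peaks within 20 kb of 8 granule genes against the distance of the peak's centre from the nearer RefSeq start (x axis, kb, positive in the direction of transcription), in 6 comparisons; colours are genes, filled points had an adjusted p under 0.05, and 2 peaks near both Gzmb and Gzmc are drawn for each. Peaks near 0 kb are mostly open symbols, and filled points lie on both sides of a log2 fold change of 0 wherever Oxyrase was given.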

How the data were processed

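RNA was measured by poly(A) RNA-seq and open chromatin by ATAC-seq, each in 12 libraries of 4 groups. The RNA values are estimated counts per Ensembl gene deposited by the authors; the submitters' processing notes name Trimmomatic, Bowtie2 2.2.0, RSEM 1.2.12 and edgeR 3.20.9 with the build mm10. The deposited RNA values look adjusted between replicate numbers: non-whole values above 1 occurred in 460 genes, 448 of which were at 0 in all libraries of 1 number, while 99.24% of non-zero values were whole (within 1e-09); the method is not given in the sources used here. The ATAC values are read counts per peak deposited by the authors over 1 common set of 75802 peaks, and the same notes name BWA, Picard, MACS2 and bedtools. Peak positions are on mm10, counted from 1.

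Estimated counts were rounded, and each assay was fitted with edgeR 4.0.16 (limma 3.58.1, R 4.3.3): filterByExpr, TMM scaling, a quasi-likelihood test over all 12 libraries with 1 mean per group, and Benjamini-Hochberg adjustment over all features tested, called under 0.05. The biological coefficient of variation was 5.05% for RNA and 9.7% for ATAC. Of 55401 identifiers 55141 matched a symbol. A count of 0 allows up to 3 counts, which is 0.0757 to 0.115 CPM in an RNA library. Symbols, starts and upstream sequences came from RefSeq tables on GRCm38.p6; distances run from a peak's centre to the nearer start.

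The members, gene lists and alternatives were chosen with earlier results of these data known. All 10 genes are named, with up to 4 called genes of each list per comparison by size, the 5 most alike genes for Prf1, Gzmb and Gzmc and the peak nearest each start. Of the called peaks within 20 kb only a part is described, and the others enter the counts of peaks alone. Alternatives were DESeq2 1.42.0, its size factors, no filter, only the groups compared, a replicate block, each library left out, a loess trend scaling and windows of 5 and 50 kb for ATAC. The scripts were tested on simulated data. Proteins were not used here, and 1 gene of the assembly list is not reported here.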

Additional observations from a re-analysis of the deposited data

How the results depend on the processing

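In RNA, 4, 2, 7, 6, 4 and 7 granule genes were called for pyruvate over NaCl, lactate over NaCl, lactate with Oxyrase over lactate and over NaCl, pyruvate over lactate, and lactate with Oxyrase over pyruvate. With a replicate block these counts were again 4, 2, 7, 6, 4 and 7, and those of peaks were 0, 3, 12, 15, 6 and 16. The model was planned without the block. Correlations of the deviations of same-numbered libraries were -0.151 to 0.173 in ATAC over 18 pairs; those in RNA (-0.21 to -0.0794) say nothing about pairing, since the RNA values appear already adjusted for replicate number. Leaving out 1 library gave 1 to 3 genes for lactate over NaCl, and for peaks 0 to 6 (lactate over NaCl), 5 to 12 (lactate with Oxyrase over lactate), 8 to 15 (over NaCl), 10 to 16 (over pyruvate) and 0 to 7 (pyruvate over lactate). Windows of 5 and 50 kb gave 5 and 22, 9 and 28, and 9 and 28 called peaks for lactate with Oxyrase over lactate, NaCl and pyruvate. Over all 75802 peaks 21539, 30885 and 29906 were called there. A wider window holds more peaks, so these counts give no share by themselves. Pyruvate over lactate gave 2 within 5 kb and 3 with the trend scaling. The Gzmb start peak changed by 0.0276 with Oxyrase over NaCl under the trend scaling. Some small log2 changes took both signs when 1 library was left out: Nkg7 with pyruvate over NaCl (-0.03573 to 0.04445), and with lactate over NaCl Gzma (-0.922 to 3.724), Gzmc (-0.1499 to 0.147) and Srgn (-0.05973 to 0.002742). Nkg7 with lactate over NaCl was called with no filter (adjusted p = 0.000585), DESeq2 (0.0189) and only both groups in the fit (0.0431); the cause was not tested. Over all genes, lactate over NaCl called 1140, 1724 with no filter and 671 with the block. Under the alternatives that kept all libraries of the groups compared, 202 of 205 values of single granule genes kept their sign and their side of the threshold. With 1 library left out, 486 of 504 did. For the peaks called in the main fit these were 269 of 300 and 460 of 600. Genes under about 0.1 CPM are near the limit of the depth.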
